A study of Mus musculus with 9 samples.

Results

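Integrins are the receptors with which a cell holds on to its matrix, and laminins are the trimeric proteins that build the sheet-like matrix under endothelium and around muscle. The genes described here were chosen by symbol alone: every protein-coding gene beginning with Itga or Itgb, without the Itgb1bp genes and Itgbl1, and every gene named Lama, Lamb or Lamc followed by a number. The rule found 39 of the 50686 genes in the count table. Of these, 38 encode chains, 27 of integrins (18 alpha and 9 beta) and 11 of laminins. The remaining match, Itgb3bp, encodes a centromere protein that takes its name from binding the β3 tail, and it is reported separately at the end.

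The RNA-Seq compared osteoblasts treated with a compound against untreated osteoblasts and against endothelial cells (ECs), with 3 libraries in each of the 3 groups. The osteoblasts were MC3T3-E1, a mouse calvarial preosteoblast line, so both osteoblast groups come from the same line. The treated group received 10 μM SB216763, an inhibitor of the kinase GSK3, for 14 days. The ECs were mouse pulmonary ECs, which the study isolated by sorting. The control osteoblasts carry the treatment label control, and how long they were cultured, whether a vehicle was added, and the strain, age and number of mice behind the ECs are not given in the sources used here. The study's screen used MC3T3 osteoblasts with an EGFP reporter under the Flk1 promoter, and whether the sequenced cells carried it is likewise not given. Nothing in the labels says that replicates were separate cultures or animals, so p-values measure only the spread between these libraries, which may be technical.

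An integrin is a pair of an alpha chain and a beta chain, and the pair decides the ligand. Some pairs bind collagen, some bind laminin, and others bind the arginine-glycine-aspartate (RGD) motif of fibronectin, vitronectin and osteopontin. Most alpha chains pair with β1, whereas αv also pairs with β3, β5, β6 and β8, and β4 pairs only with α6. A laminin is assembled from an alpha, a beta and a gamma chain before it is secreted, and the alpha chain carries the sites that integrins bind. Vascular basement membranes are built mainly from laminins with the α4 or the α5 chain. GSK3 marks β-catenin for degradation, and stabilised β-catenin acts on genes through TCF/LEF factors.

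Levels are given in CPM, counts scaled by library depth after TMM normalization, as separate values for the libraries numbered 1, 2 and 3 and as mean ± SD (n = 3). Gene positions are those of GENCODE M21 on GRCm38. The libraries held 30990107 to 68946333 counts, so that 3 counts, taken as the floor in a library, equalled 0.0473 to 0.104 CPM on this scale. The 8 endothelial markers summed to 6746 to 6913 CPM in the EC libraries. They summed to 2.69 to 3.40 CPM in the control libraries and to 2.69 to 3.13 CPM in the treated libraries. None of the 8 was called between treated and control osteoblasts. Thus the EC label fits its markers, and the sums in the treated libraries were close to those in the control libraries. The study reported VE-cadherin, CD31 and eNOS (Cdh5, Pecam1 and Nos3) as induced by SB216763 in other assays. It also described endothelial markers as enhanced in its RNA-Seq, which these 8 markers do not show. The 8 osteoblast markers summed to 20160 to 28750 CPM in control, 2858 to 3008 CPM in treated and 29.0 to 38.4 CPM in EC libraries. Most of the osteoblast sums was Col1a1, at 24510 CPM in control and 2732 CPM in treated cells on average. At an FDR under 0.01, 7 of the 8 were lower in treated cells, 4 of them by at least 4-fold. Of all genes tested, 32.0% and 5.84% were. Runx2 went only from 158 to 116 CPM, and Bglap2 was not called. The osteopontin gene Spp1, which the study read as an osteogenic marker in aorta, is not among the 8. It went the other way, from 210 CPM in control to 4556 CPM in treated cells. In bulk RNA, fewer cells of a type and less RNA per cell cannot be told apart. Control replicate 2 was the lowest control library for 16 of the 18 chains whose mean over the 3 groups was 10 CPM or more. It was the lowest for 30.0% of the 9494 tested genes at that mean level.

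Of the 38 chains, 33 passed the filter on low counts, 23 of integrins and 10 of laminins. The 5 that did not were Itgb6, Itgam, Itgad, Itgb2l and Lamc3, and none of them exceeded 0.21 CPM in any library. A chain kept only because of its level in a single group had to differ, so the counts describe the chains and support nothing by themselves. At an FDR under 0.01, 8 chains rose and 12 fell between control and treated osteoblasts, against 32.9% of all 15531 genes tested rising and 32.0% falling. With scaling by library size only, 10 chains rose and 10 fell, so the split between the directions depends on the scaling. Chains passing in either direction made up 60.6%, against 64.9% of all genes, so the number of chains called was close to the background. Of all such calls in the table, 50.7% were higher in treated cells, and this share became 63.7% when only library size was used for scaling. The median log2 fold change was -0.17 over the chains and 0.014 over all genes, and the median absolute change was 0.72 and 0.55.

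A further cutoff asked for a 4-fold change, a log2 fold change of 2. It left 10 chains in either direction, 30.3% of those tested, against 9.65% of all genes. Itga6, Itgb3, Itgb2 and Lama5 rose (4 chains, against 3.81% of all genes). Among the 6 chains that fell, against 5.84% of all genes, were Itga1, Itga9, Itga10, Itgal and Lama1. Between ECs and control osteoblasts, 22 chains were higher in ECs and 8 lower at the FDR cutoff, against 39.0% and 37.9% of all genes (76.9% in either direction), and with the fold cutoff 16 were higher and 6 lower, against 13.5% and 9.87%. The treated and control libraries did not overlap for 23 of the 33 chains, where 73.2% of all genes showed no overlap, and the EC and control libraries did not overlap for 30 chains, where 84.0% of all genes showed none. Both comparisons use the same 3 control libraries, so their values are set side by side and no agreement between them is read.

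**Figure D1:**
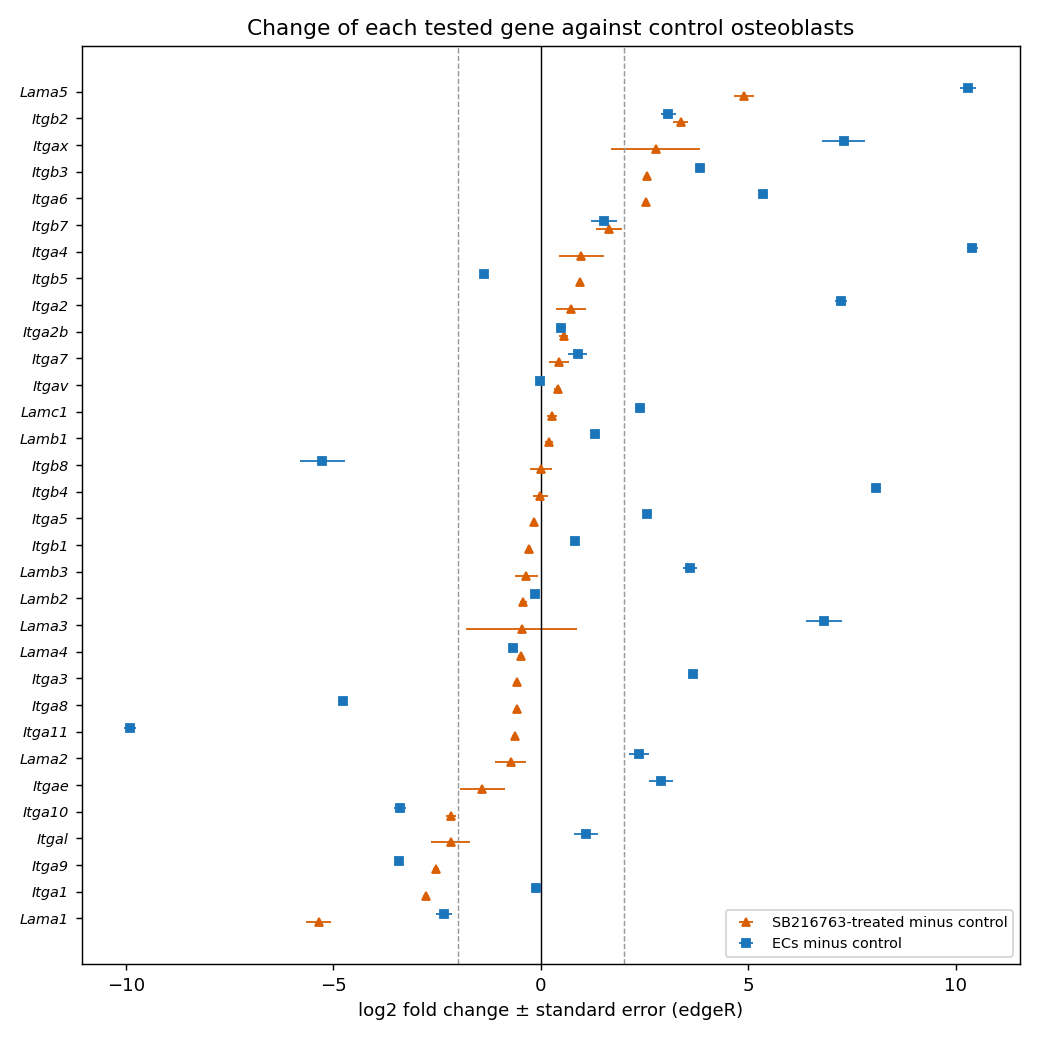
Log2 fold change against control osteoblasts, with its standard error, for chains tested, in SB216763-treated osteoblasts (triangles) and ECs (squares); dashed lines mark a log2 fold change of 2 in each direction. Lama5 is at the top with changes of 4.90 and 10.29, Lama1 is at the bottom with -5.35 and -2.33, and Itga1 is at -2.77 in treated cells and -0.11 in ECs.

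The collagen-binding alpha chains were lower in the treated osteoblasts in 3 of 4 cases, and 32.0% of all genes tested were called lower. Itga1, whose chain prefers the type IV collagen of basement membranes (chr13:114953096-115101964), was at 49.6, 41.7 and 48.9 CPM in the control libraries, 6.45, 7.09 and 7.03 CPM in the treated libraries and 42.7, 44.6 and 42.6 CPM in the EC libraries. All 3 treated libraries lay far under all others, and the EC and control libraries overlapped. The treated level was 6.80-fold lower than control (log2 fold change -2.77, SE 0.07, edgeR adjusted p = 1.52e-14), while ECs and control osteoblasts differed by -0.11 (SE 0.06, adjusted p = 0.107), a difference that passed the cutoff at -0.20 when control replicate 2 was left out. Itga10, a collagen receptor of cartilage (chr3:96645584-96664519), was at 25.5, 19.2 and 23.5 CPM in control, 4.73, 4.27 and 6.18 CPM in treated and 2.38, 1.77 and 2.27 CPM in EC libraries. Its 3 groups were ordered without overlap, control above treated above EC, with a treated change of -2.17 (SE 0.13, edgeR adjusted p = 2.70e-10) and an EC change of -3.39 (SE 0.14, adjusted p = 2.37e-12). Of the exonic bases of Itga10, 33.5% are shared with the gene model Gm42957 on the same strand, which was at 0.051 CPM or less in every group mean.

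Itga11 encodes the main receptor of mesenchymal cells for fibrillar collagen, and per exon length it had the highest level of the 4 in osteoblasts. The control libraries held 217, 178 and 212 CPM, the treated libraries 128, 128 and 137 CPM, and the EC libraries 0.137, 0.244 and 0.255 CPM, which is 6 to 11 counts. Treated cells thus kept most of the Itga11 level, 1.54-fold under control (log2 fold change -0.63, SE 0.07, edgeR adjusted p = 3.74e-07), and ECs were far lower still (-9.90, SE 0.14, adjusted p = 1.07e-18). Itga2, the collagen receptor chain of platelets and epithelium, showed the opposite distribution. It was at 0.158, 0.200 and 0.139 CPM in control, 0.229, 0.182 and 0.436 CPM in treated and 24.7, 27.0 and 26.5 CPM in EC libraries. Control and treated libraries overlapped (0.72, SE 0.36, edgeR adjusted p = 0.0855), and ECs exceeded control by 7.24 (SE 0.14, adjusted p = 1.03e-16). Itga1 and Itga2 lie only 21 kb apart on chromosome 13, and in treated cells the 6.80-fold lower level of Itga1 stood beside an Itga2 level that stayed under 0.44 CPM in every library.

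The sequences 250 bases upstream of the start of Itga1 and Itga10 are shown because both genes fell past both cutoffs and both windows hold the core TCF/LEF motif. The motif searched was CTTTGA, read as TCAAAG on the other strand, and capitals mark it. The windows are from RefSeq, on GRCm38.p6, printed 5′ to 3′ on the strand of the gene, chr13:115101965-115102214 on the minus strand for Itga1 and chr3:96645334-96645583 on the plus strand for Itga10.
Itga1: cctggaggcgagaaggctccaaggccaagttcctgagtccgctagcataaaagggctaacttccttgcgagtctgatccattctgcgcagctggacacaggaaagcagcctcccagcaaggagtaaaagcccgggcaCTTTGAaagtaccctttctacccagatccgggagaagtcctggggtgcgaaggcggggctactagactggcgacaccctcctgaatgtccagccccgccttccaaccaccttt
Itga10: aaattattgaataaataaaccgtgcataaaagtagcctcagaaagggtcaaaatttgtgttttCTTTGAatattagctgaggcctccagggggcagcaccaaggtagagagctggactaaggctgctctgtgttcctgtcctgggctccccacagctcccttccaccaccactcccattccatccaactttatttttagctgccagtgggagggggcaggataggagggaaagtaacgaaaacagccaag
The motif begins 113 bases before the annotated start in Itga1 and 187 bases before it in Itga10. The 24 rule members with an entry in this table have 27 windows, of which 4 held the motif (Itga1, Itga10, Itgam and Lama2), and 13.8% of the 32851 windows of the same length in the table held it. The window of Itga9, which also fell past both cutoffs, holds no match, and it lies 105002 bases from the start of Itga9 in GENCODE M21. The windows printed were thus picked for their motif. A match describes letters and does not show binding.

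Among the laminin-binding chains, Itga6 rose in treated osteoblasts, Itga3 fell, and Itga7 and Itgb4 did not pass the test. Itga6, the laminin receptor chain of endothelium, epithelium and many stem cells (chr2:71745616-71858416), was at 9.72, 9.01 and 9.86 CPM in control, 54.0, 55.1 and 55.3 CPM in treated and 379, 395 and 386 CPM in EC libraries. The groups formed 3 tight and separate steps. Treated cells were 5.76-fold above control (log2 fold change 2.53, SE 0.05, edgeR adjusted p = 5.16e-16), ECs were 40.7-fold above control (5.35, SE 0.05, adjusted p = 4.11e-20), and the treated mean reached 14.2% of the EC mean where the control mean was at 2.47%. Itgb4, which pairs with α6 and links it to intermediate filaments, was at 1.78, 1.37 and 1.60 CPM in control, 1.06, 1.56 and 2.10 CPM in treated and 427, 418 and 454 CPM in EC libraries. Control and treated libraries overlapped, with a difference of -0.01 (SE 0.18, edgeR adjusted p = 0.989), and ECs were 272-fold above control (8.09, SE 0.11, adjusted p = 1.44e-18). So the rise of Itga6 in treated cells stood beside an Itgb4 level that did not pass the test.

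Itga3, a receptor chain for the laminins of basement membranes, had the highest level per exon length of the alpha chains in ECs. The control libraries held 81.0, 69.5 and 77.5 CPM, the treated libraries 48.8, 53.5 and 50.7 CPM and the EC libraries 949, 937 and 1001 CPM. Treated cells moved below control by 1.49-fold (log2 fold change -0.57, SE 0.06, edgeR adjusted p = 3.63e-07), and ECs stood 12.7-fold above it (3.66, SE 0.06, adjusted p = 2.23e-17). Itga7, the laminin receptor chain of muscle, stayed between 0.704 and 1.67 CPM in all 9 libraries. It did not pass the test in treated cells (0.44, SE 0.25, edgeR adjusted p = 0.124) and was called higher in ECs (0.89, SE 0.24, adjusted p = 0.00262), a call that was lost without control replicate 1 (adjusted p = 0.01) or EC replicate 1 (0.0137). Because Itgb4, Itga3 and Itga6 are also abundant in epithelium, 10 epithelial markers were read in the same libraries. They summed to 0.487 to 0.701 CPM in ECs, 0.200 to 0.452 CPM in control and 0.057 to 0.245 CPM in treated cells, with Epcam at 0 in all 9 libraries.

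**Figure D2:**
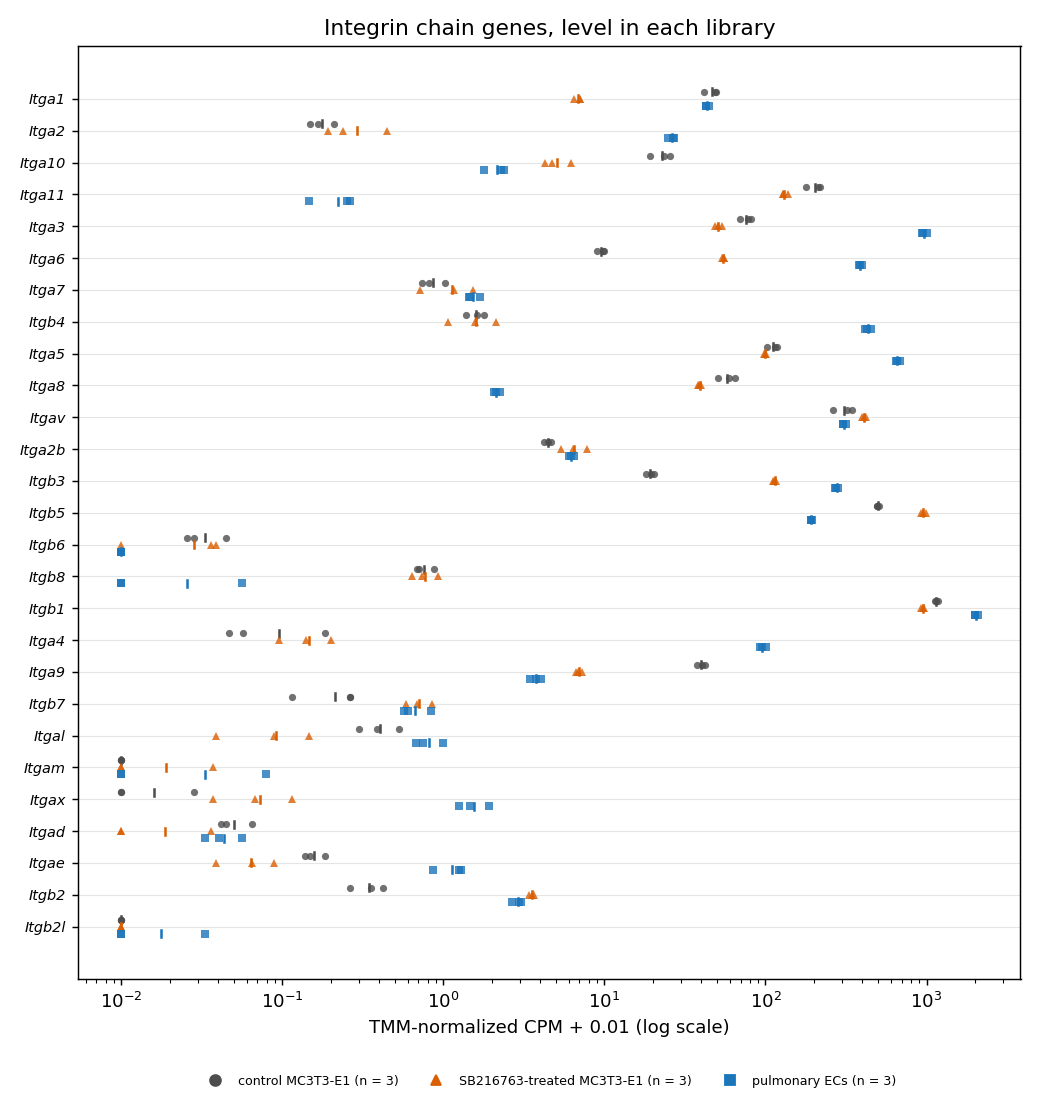
TMM-normalized CPM plus 0.01 on a log scale for the 27 integrin chain genes, with points for the 3 control, 3 SB216763-treated and 3 EC libraries and short bars for group means. Itga6 and Itgb3 step up from control through treated to EC libraries, Itga9 and Itga10 step down in that order, and Itga1 is at 6.45 to 7.09 CPM in treated libraries and above 41 CPM in all others.

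The RGD-binding chains differed in treated osteoblasts: αv, β3, β5 and αIIb rose, α8 fell, and α5 and β8 did not pass the test. Itgb3, the β3 chain of the vitronectin receptor and of the platelet fibrinogen receptor (chr11:104608000-104670476), was at 20.2, 18.2 and 19.3 CPM in control, 113, 112 and 117 CPM in treated and 271, 276 and 284 CPM in EC libraries. The 3 groups were clearly apart, and the treated mean was 41.1% of the EC mean, against 6.94% for control. Itgb3 rose 5.92-fold in treated cells (log2 fold change 2.57, SE 0.05, edgeR adjusted p = 4.17e-16) and was 14.4-fold above control in ECs (3.85, SE 0.05, adjusted p = 9.75e-19). Itgb5, which pairs with αv alone, moved the other way in ECs. It was at 493, 504 and 493 CPM in control, 946, 988 and 918 CPM in treated and 193, 192 and 192 CPM in EC libraries. Treated libraries were the highest and EC libraries the lowest, with a treated change of 0.94 (SE 0.05, edgeR adjusted p = 2.86e-11) and an EC change of -1.37 (SE 0.05, adjusted p = 1.27e-13).

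Itgav encodes αv, the shared partner of these beta chains. It was at 344, 261 and 319 CPM in control, 419, 395 and 412 CPM in treated and 305, 314 and 301 CPM in EC libraries. The treated libraries lay above all control libraries by 1.33-fold (log2 fold change 0.41, SE 0.08, edgeR adjusted p = 1.49e-04), and ECs overlapped control (-0.01, SE 0.08, adjusted p = 0.936). Itga5, the fibronectin receptor chain, was at 117, 102 and 114 CPM in control, 100, 99.3 and 97.9 CPM in treated and 652, 643 and 681 CPM in EC libraries. The treated libraries were just under the control libraries and did not pass the cutoff (-0.17, SE 0.05, edgeR adjusted p = 0.0119), and the sign of this difference turned to 0.04 when only library size was used. It passed without control replicate 2 (-0.23, adjusted p = 2.01e-04), and, with changes of -0.16 to -0.19, with DESeq2 (adjusted p = 0.00495), limma-voom (0.00951), only the 2 groups compared (0.00919) and the replicate block (0.00768). ECs were 5.92-fold above control (2.57, SE 0.06, edgeR adjusted p = 3.33e-16).

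Itga8, the receptor chain for nephronectin, fell in treated cells and was lowest in ECs. It was at 64.3, 50.7 and 59.0 CPM in control, 39.7, 38.9 and 38.2 CPM in treated and 2.11, 2.22 and 2.04 CPM in EC libraries, a treated change of -0.57 (SE 0.07, edgeR adjusted p = 1.34e-06) and a 27.4-fold lower level in ECs (adjusted p = 1.67e-16). Beside Itga8 and Itga11, both chains of mesenchymal cells, the 11 smooth muscle, pericyte and fibroblast markers summed to 3476 to 3645 CPM in control, 1258 to 1301 CPM in treated and 45.6 to 47.6 CPM in EC libraries. Acta2 alone went from 2915 CPM in control to 144 CPM in treated cells on average. Of the 10 markers tested, 4 were higher and 5 lower in treated cells, where 32.9% and 32.0% of all genes were. Their median log2 fold change was -0.02. The part of these cell types in the differences of Itga8 and Itga11 was not tested. Itga2b, the platelet fibrinogen receptor chain that pairs with β3, was at 4.43 ± 0.213 CPM in control, 6.5 ± 1.20 CPM in treated and 6.23 ± 0.228 CPM in EC libraries. It was called higher in treated cells (0.55, SE 0.11, edgeR adjusted p = 4.43e-04) and in ECs (0.49, SE 0.11, adjusted p = 9.55e-04). The 6 platelet and megakaryocyte markers, read beside Itgb3 and Itga2b, summed to 8.06 to 9.03 CPM in control, 9.67 to 10.9 CPM in treated and 30.8 to 32.1 CPM in EC libraries. Gp1bb, the largest part of the control sum, went down, from 7.35 CPM in control to 3.30 CPM in treated cells and 0.0766 CPM in ECs. Of the 5 markers tested, 3 were higher in treated cells and 1, Gp1bb, was lower. Pf4 among them was at 0.0364 CPM or less in control libraries, 4.11 to 5.71 CPM in treated libraries and 25.9 to 27.6 CPM in EC libraries, and Gp6, a defining platelet receptor, was at 0 in all 9, and the part of platelet or megakaryocyte RNA in these changes was not tested. Itgb8, which with αv activates latent TGF-β, was at 0.626 to 0.917 CPM in the 6 osteoblast libraries and had 0, 0 and 2 counts in the EC libraries. Itgb6, its epithelial counterpart, had at most 1 count in any library.

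Itgb1 encodes the common β1 chain and, per exon length, had the highest level of all integrin chains in control osteoblasts and ECs. The control libraries held 1181, 1125 and 1140 CPM, the treated libraries 959, 956 and 924 CPM and the EC libraries 2013, 2077 and 2009 CPM. Treated cells were below control by a small step without overlap (log2 fold change -0.28, SE 0.05, edgeR adjusted p = 8.86e-05), and the call was lost with scaling by library size only (-0.08, adjusted p = 0.123). ECs were 1.77-fold above control (0.82, SE 0.05, edgeR adjusted p = 1.95e-10).

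The alpha chains α4 and α9 form a structural pair of their own, and both recognise VCAM1. Itga9, which also binds tenascin-C and is needed for lymphatic valves (chr9:118606690-118901003), was at 40.2, 37.5 and 42.1 CPM in control, 7.28, 6.65 and 6.86 CPM in treated and 3.73, 3.44 and 4.05 CPM in EC libraries. It fell 5.75-fold in treated cells (log2 fold change -2.52, SE 0.07, edgeR adjusted p = 1.74e-14) and was 10.6-fold lower in ECs than in control (-3.40, SE 0.07, adjusted p = 3.63e-16), with no overlap among the 3 groups. The 6 lymphatic endothelial markers beside it summed to 90.8 to 102 CPM in control, 91.8 to 102 CPM in treated and 248 to 265 CPM in EC libraries. Different genes made up these sums. Pdpn was at 97.0 CPM in control, 97.7 CPM in treated cells and 0.115 CPM in ECs, where Lyve1 and Flt4 were at 87.8 and 170 CPM. None of the 3 markers tested was called between treated and control cells. Itga4, the receptor chain with which leukocytes bind VCAM1 and fibronectin, gave 3, 2 and 5 counts in control and 3, 5 and 7 counts in treated libraries. The EC libraries held 95, 100 and 92 CPM (3284 to 4147 counts). Treated and control libraries overlapped near the floor (0.97, SE 0.54, edgeR adjusted p = 0.119), and ECs were above control by 10.39 (SE 0.14, adjusted p = 6.65e-19), a fold that rests on the 10 control counts. Itgb7, the partner of α4 and αE on lymphocytes, was at 0.104 to 0.255 CPM in control, 0.573 to 0.844 CPM in treated and 0.556 to 0.822 CPM in EC libraries, and rose in treated cells (1.65, SE 0.31, edgeR adjusted p = 2.01e-04).

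The leukocyte chains were low throughout, and 3 of the 7 were not tested. Itgb2, the common chain of the β2 integrins of leukocytes, was the exception in that it rose (chr10:77530252-77565708). It was at 0.410, 0.255 and 0.347 CPM in control (10 to 26 counts), 3.55, 3.39 and 3.65 CPM in treated (124 to 134 counts) and 3.02, 2.95 and 2.66 CPM in EC libraries. The treated libraries were above all others, 10.3-fold above control (log2 fold change 3.37, SE 0.18, edgeR adjusted p = 5.89e-11), and did not pass the cutoff against ECs (0.29, SE 0.13, adjusted p = 0.0419). None of its alpha partners that were tested was called higher. Itgam and Itgad were not tested, and 68.7% of the exonic bases of Itgam are shared with the gene model Gm49368 on the same strand. Itgal, the lymphocyte partner, fell from 15 to 24 counts in the control libraries to 1 to 5 counts in the treated libraries (-2.17, SE 0.47, edgeR adjusted p = 5.86e-04), and its change was -1.81, under the fold cutoff, without treated replicate 1. Itgax stayed at 0.104 CPM or less (log2 fold change 2.77, SE 1.07, edgeR adjusted p = 0.0291) and Itgam, Itgad and Itgae at 0.173 CPM or less in all 6 osteoblast libraries, and Itgb2l had no count there. In ECs, Itgal, Itgax, Itgae and Itgb2 were all called higher than in control, where 39.0% of all genes were. The alpha chains were at 0.670 to 1.90 CPM there. Itgax and Itgae, low in all osteoblast libraries, passed the filter only through the ECs, so their calls were fixed in advance. The 12 leukocyte markers summed to 26.8 to 28.4 CPM in control, 7.80 to 9.23 CPM in treated and 12.9 to 13.8 CPM in EC libraries. Most of that sum was Lyz2, the pan-leukocyte marker Ptprc was at 0.30 CPM or less in every library, and Cd3e was at 0 in all 9.

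Between treated and control osteoblasts, Lama1 and Lama5 had the largest fall and the largest rise of the chains tested, whereas Lama4 fell by less than the fold cutoff and Lama2 and Lama3 did not pass. Lama5, whose chain forms the main laminin of mature vascular and epithelial basement membranes (chr2:180176373-180225859), was at 0.299, 0.419 and 0.313 CPM in control (9 to 23 counts), 8.92, 8.45 and 13.9 CPM in treated (311 to 512 counts) and 413, 421 and 480 CPM in EC libraries. The groups were separated by more than an order of magnitude at each step, and treated replicate 3 was the highest of its group. Treated cells were 29.9-fold above control (log2 fold change 4.90, SE 0.25, edgeR adjusted p = 4.19e-11), and ECs were 1254-fold above it (10.29, SE 0.20, adjusted p = 6.51e-17). The treated mean was nevertheless only 2.38% of the EC mean, against 0.078% for control. Lama1, the alpha chain of early embryonic basement membranes (chr17:67697259-67822647), went the other way. Its control libraries held 4.32, 2.91 and 4.34 CPM (125 to 274 counts), its treated libraries 0.143, 0.0521 and 0.0817 CPM (2 to 5 counts) and its EC libraries 0.710, 0.731 and 0.834 CPM. Treated libraries were the lowest of the 3 groups, below control by 40.7-fold (-5.35, SE 0.30, edgeR adjusted p = 1.75e-10) and below ECs by 8.12-fold (adjusted p = 4.82e-06).

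Lama5 was the chain with the largest rise, and its upstream window is shown for comparison with those above. It lies at chr2:180225860-180226109 on the minus strand of GRCm38.p6, it is 72.4% G or C where the windows of Itga1 and Itga10 are 57.6% and 48.0%, and it holds no CTTTGA on either strand.
Lama5: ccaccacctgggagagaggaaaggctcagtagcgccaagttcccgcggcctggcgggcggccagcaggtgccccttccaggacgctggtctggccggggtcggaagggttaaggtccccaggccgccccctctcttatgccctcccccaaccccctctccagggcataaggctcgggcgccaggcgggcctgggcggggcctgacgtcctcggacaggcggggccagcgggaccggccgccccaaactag

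Lama4, the other vascular laminin alpha chain, was the main laminin alpha chain of the osteoblasts per exon length. It was at 231, 190 and 219 CPM in control, 144, 151 and 163 CPM in treated and 132, 135 and 137 CPM in EC libraries. Treated and EC libraries were close together and all under the control libraries, with changes of -0.48 (SE 0.06, edgeR adjusted p = 5.12e-06) and -0.67 (SE 0.06, adjusted p = 8.82e-08). Treated cells and ECs differed by 0.18 (SE 0.06, edgeR adjusted p = 0.0151), short of the cutoff but past it under 9 of 18 alternatives. Lama2, the alpha chain of muscle, was at 0.104 to 0.347 CPM in the osteoblast libraries and 1.34 to 1.63 CPM in ECs. Lama3, the epithelial alpha chain, had 2 counts over the 3 control libraries, 1 count over the treated libraries and 56 to 86 counts in each EC library.

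Of the beta chains, Lamb2 fell slightly in treated osteoblasts and Lamb1 did not pass the test. Lamb1, the beta chain of the earliest and most widespread laminins, was at 166, 116 and 151 CPM in control, 159, 159 and 179 CPM in treated and 351, 353 and 373 CPM in EC libraries. Control replicate 2 was the low library, and treated and control libraries overlapped (log2 fold change 0.20, SE 0.09, edgeR adjusted p = 0.0716). Without control replicate 1 the difference was 0.31 and passed (adjusted p = 0.00471), and without control replicate 2 it was 0.05 (adjusted p = 0.424). It also passed with scaling by library size only (0.40, adjusted p = 0.00151) and with no filter on low counts (0.21, adjusted p = 0.00402). ECs were 2.49-fold above control (1.31, SE 0.10, edgeR adjusted p = 2.53e-09). Lamb2, the beta chain of mature vascular, renal and synaptic laminins, was at 278, 211 and 263 CPM in control, 178, 181 and 205 CPM in treated and 224, 224 and 237 CPM in EC libraries. The treated libraries were the lowest (-0.42, SE 0.08, edgeR adjusted p = 2.77e-04), a call lost with scaling by library size only (-0.21, adjusted p = 0.0320), and ECs overlapped control (-0.14, SE 0.08, adjusted p = 0.136) unless control replicate 2 was left out (-0.25, adjusted p = 3.90e-04). Lamb3, the epithelial beta chain, was at 0.327 to 0.729 CPM in osteoblast libraries and 5.81 to 6.0 CPM in ECs.

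Lamc1 encodes the gamma chain that most laminins share. It was at 232, 148 and 213 CPM in control, 231, 230 and 255 CPM in treated and 989, 1040 and 1083 CPM in EC libraries. Treated and control libraries overlapped (log2 fold change 0.27, SE 0.11, edgeR adjusted p = 0.0448). The difference passed at 0.40 without control replicate 1 (adjusted p = 0.00370) and was 0.09 without control replicate 2 (adjusted p = 0.189). It also passed with scaling by library size only (0.47, adjusted p = 0.00181) and with no filter on low counts (0.28, adjusted p = 1.22e-04). ECs were 5.25-fold above control (2.39, SE 0.12, edgeR adjusted p = 1.83e-11). Lamc3 had no count in the 6 osteoblast libraries and 5 to 9 counts in each EC library, a level at least 1.59-fold higher than control and at least 1.93-fold higher than treated when the floor of 3 counts per library stands for 0.

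**Figure D3:**
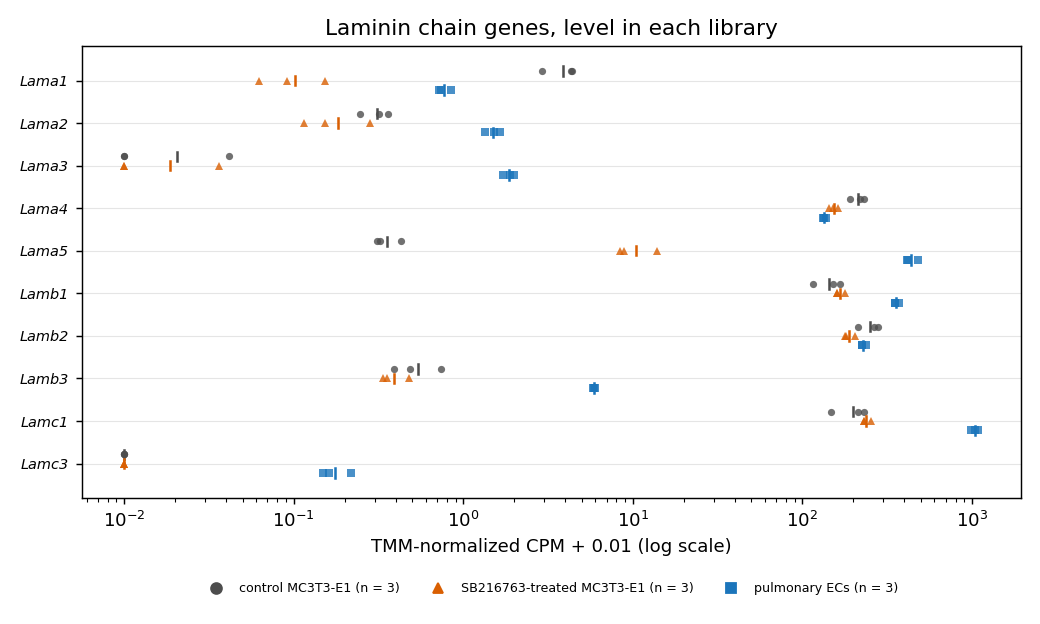
TMM-normalized CPM plus 0.01 on a log scale for laminin chain genes, with points for the 3 control, 3 SB216763-treated and 3 EC libraries and short bars for group means. Lama5 rises from 0.344 CPM in control to 10.4 CPM in treated and 438 CPM in EC group means, whereas Lama4, Lamb1, Lamb2 and Lamc1 are above 100 CPM in every library.

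To compare chains with each other, CPM was divided by exon length, and each chain's share of the summed CPM per kb of its class was taken in each library. These shares are descriptions without a test. Among alpha integrin chains the control osteoblasts were made up mainly of Itga11 (31.3%), Itgav (22.7%), Itga5 (17.9%) and Itga3 (10.6%), and with the longest transcript as the length Itgav (28.4%) stood above Itga11 (26.5%). In treated cells Itgav led with 35.3% ± 0.75, ahead of Itga11 with 23.7% ± 0.65 and Itga5 with 18.7% ± 0.45. Itga6 made up 0.84% of the alpha level in control and 5.64% in treated cells, or 1.45% and 8.98% with the longest transcript. ECs had a different make-up, with Itga3 at 43.3%, Itga5 at 34.3%, Itga6 at 11% (17.9% with the longest transcript) and Itga11 at 0.011%.

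The beta integrin shares turned over in the osteoblasts. Itgb1 held 66.2% ± 0.73 of the beta level in control and 44.6% ± 0.55 in treated cells, and Itgb5 held 32.9% ± 0.77 and 51.4% ± 0.67, so that Itgb5 per length was above Itgb1 in treated cells. The order was the same with the longest transcript. Itgb3 went from 0.77% to 3.71%. In ECs Itgb1 held 75.2%, Itgb4 9.32%, Itgb5 8.18% and Itgb3 7.08%. The summed alpha level per kb was 126 ± 12.9 in control, 108 ± 1.70 in treated and 390 ± 9.21 CPM per kb in ECs, and the summed beta level was 425 ± 6.24, 520 ± 13.4 and 662 ± 7.59 CPM per kb.

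In the laminin alpha class Lama4 held 97.5% ± 0.23 in control and 93.2% ± 1.45 in treated cells, and Lama5 held 0.17% ± 0.051 and 6.67% ± 1.43, or 0.086% and 3.46% with the longest transcript as length. ECs had the reverse, with Lama5 at 77.0% and Lama4 at 22.4%, or 62.9% and 36.5% with the longest transcript. The beta share of Lamb1 was 26.0% in control, 35.1% in treated and 48.5% in ECs, and that of Lamb2 was 73.9%, 64.8% and 50.3%. With the longest transcript the EC order of this pair turned, to 59.8% for Lamb1 and 39.1% for Lamb2.

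**Figure D4:**
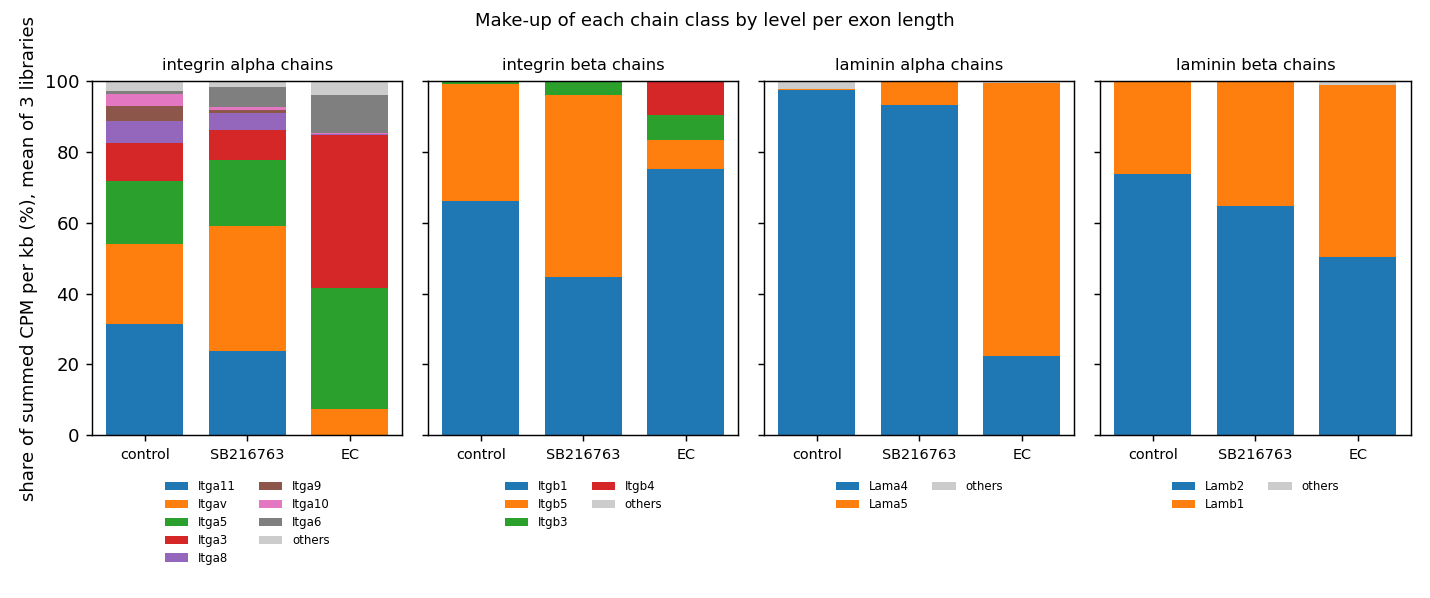
Share (%) of the summed CPM per kb of exon held by each chain within 4 classes, as the mean of 3 libraries for control, SB216763-treated and EC groups. Itgb5 is 32.9% of the beta integrin bar in control and 51.4% in treated cells, and Lama5 is 6.67% of the laminin alpha bar in treated cells and 77.0% in ECs.

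Treated osteoblasts were then set against ECs directly. Of the 33 chains, 7 were higher in treated cells and 21 lower at the FDR cutoff, against 38.3% and 40.3% of all genes (78.6% in either direction), and 4 and 17 with the fold cutoff, against 10.3% and 15.0%. The 4 above ECs were Itga11 (log2 difference 9.27, SE 0.14), Itgb8 (0.626 to 0.917 CPM against 0, 0 and 2 counts), Itga8 (4.20, SE 0.10) and Itgb5 (2.30, SE 0.05), with edgeR adjusted p between 3.13e-18 for Itga11 and 2.37e-07 for Itgb8. Itga10, Itga9 and Itgav were also higher than in ECs, by 1.22, 0.88 and 0.41. Among the chains that rose with treatment, Itga6 was still 7.06-fold under ECs (-2.82, SE 0.05, edgeR adjusted p = 8.69e-18), Itgb3 2.43-fold (-1.28, SE 0.05, adjusted p = 2.24e-13) and Lama5 42.0-fold (-5.39, SE 0.13, adjusted p = 1.81e-15). The chains that did not pass, 5 in number, were Itga2b (0.06, SE 0.11), Itgb7 (0.11, SE 0.27), Lama4 (0.18, SE 0.06), Itgb2 (0.29, SE 0.13) and Itga7 (-0.44, SE 0.23). The libraries did not overlap for 30 of the 33 chains, and 85.4% of all genes showed no overlap.

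The other genes of the pathway were read from lists of matrix partners, ligands and adaptors. Of 26 integrin ligands, 25 were tested, 6 rose and 15 fell in treated osteoblasts, and 2 and 12 did so past both cutoffs, where 32.9% and 32.0% of all genes rose and fell and 3.81% and 5.84% did so past both, with a median log2 fold change of -1.97. The osteopontin gene Spp1 rose from 210 to 4556 CPM (4.44, edgeR adjusted p = 2.27e-17), and Edil3, which encodes an RGD protein bound by αv integrins, rose from 44.3 to 404 CPM (3.18, adjusted p = 2.32e-14). Npnt, encoding the α8 ligand nephronectin, fell from 4459 to 61.3 CPM (-6.18, edgeR adjusted p = 6.38e-18). The tenascins Tnc and Tnn, the first of them a ligand of α9, fell from 1925 to 92.5 CPM and from 156 to 2.02 CPM. Vcam1, whose product α9 also recognises, rose from 69.9 to 212 CPM (1.60, edgeR adjusted p = 1.73e-14), under the fold cutoff. The collagen genes Col1a1 and Col1a2, whose fibrils the collagen-binding chains hold, fell from 24510 to 2732 CPM and from 27830 to 5322 CPM. Ibsp, Thbs1, Postn, Fbln5 and Ccn1 were the other ligand genes past both cutoffs at 10 CPM or more, with log2 fold changes between -3.74 and -2.16, and Vtn and Icam1 passed below that level. Ibsp and Col1a1 are also among the osteoblast markers above. Fn1, encoding the α5 ligand fibronectin, was at 4008 CPM in control and 4340 CPM in treated cells (0.11, edgeR adjusted p = 0.532).

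Basement membrane partners of laminin rose in 6 and fell in 4 of the 14 tested, out of 18, close to the 64.9% of all genes called in either direction. Col18a1, the source of endostatin, and Sparc fell past both cutoffs, from 77.6 to 13.6 CPM (log2 fold change -2.51, edgeR adjusted p = 2.75e-15) and from 9664 to 1957 CPM (-2.30, adjusted p = 2.46e-14), while in ECs Col18a1 was at 2408 CPM. None of the partners that rose did so past both cutoffs. Of all genes, 3.81% rose and 5.84% fell past both. The 2 laminin receptors other than integrins were split: Dag1 rose from 335 to 427 CPM (0.35, edgeR adjusted p = 1.29e-05), and Bcam, a receptor for the α5 laminin chain, stayed at 0.152 CPM in treated cells on average where ECs held 136 CPM. Of 37 adaptor and signalling genes at the integrin tail, 34 were tested, 10 rose and 18 fell, where 32.9% and 32.0% of all genes did. Past both cutoffs 3 rose and none fell, where 3.81% and 5.84% of all genes did, and they were the tensins Tns1 (15.1 to 151 CPM, 3.32, edgeR adjusted p = 6.43e-16) and Tns2 (59.6 to 256 CPM, 2.10, adjusted p = 2.0e-15), which bind beta tails and actin, and Parvg at 0.22 CPM. Among 9 tetraspanins and other membrane partners 5 rose and 1 fell, none past both cutoffs, again close to the 64.9% of all genes called. Itgb3bp, the centromere gene that matched by name, was at 12.0 ± 0.83 CPM in control, 5.77 ± 0.65 CPM in treated and 10.1 ± 0.95 CPM in EC libraries (treated change -1.05, SE 0.09, edgeR adjusted p = 4.80e-08), and 8.59% of its exonic bases are shared with Pgm1 on the opposite strand.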

How the data were processed

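Per the labels, total RNA of 9 libraries was extracted with a column kit and made into libraries. The authors deposited raw counts per gene in 1 table (50686 Ensembl gene IDs), and the submitters' processing notes name STAR 2.5.3a and GRCm38. The study's methods name STAR for the gene counts too. The strand setting and the annotation are not given in the sources used here. How reads on bases shared with antisense or overlapping genes were counted is therefore not known.

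Symbols were taken for 50376 IDs, and positions and exon lengths for 50462 IDs from GENCODE M21. Counts were tested in edgeR 4.0.16 (R 4.3.3, limma 3.58.1) with TMM normalization, filterByExpr and quasi-likelihood F tests in a single fit of all 9 libraries, with Benjamini-Hochberg adjustment over the 15531 genes kept. Calls used an FDR of 0.01, alone and together with a log2 change of 2 or more either way, the cutoffs in the study's methods. CPM used the effective library sizes of that fit. The SE of a change was derived from its test, as the absolute log2 fold change divided by the square root of the F statistic. The scripts were tested on simulated data.

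The members and lists were chosen with earlier results of these data known. Values per library are given for members past both cutoffs in treated against control osteoblasts with at least 1 CPM in the higher group, members with at least 50 CPM in any group, and members past both cutoffs in ECs against control with at least 10 CPM. List genes are named if past both cutoffs in treated cells at 10 CPM or more. Itgal, Itga7, Itga2b, Itgb7, Fn1, Vcam1, Dag1, Bcam, Parvg and the marker genes were singled out after their values were seen. So were the windows of Itga1 and Itga10. Protein sequences were not used here, and 1 chain is counted but not reported here.

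Alternatives were DESeq2 1.42.0, limma-voom, library-size and upper-quartile scaling, other filters and thresholds, only the compared groups, the replicate number as a block, and leaving out each library. No pair of libraries was identical.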

Additional observations from a re-analysis of the deposited data

How the results depend on the processing

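Under every alternative run, no call on a chain reversed, and 26 of 33 chains kept their call in treated against control osteoblasts, 29 in ECs against control and 30 in treated osteoblasts against ECs. The number of chains lower in treated osteoblasts past both cutoffs went from 6 to 3 with scaling by library size only, where Itga10 (log2 fold change -1.96) and Itgal (-1.97) were among those that came short of the fold cutoff. It also moved 4 smaller changes in treated cells that stayed past the FDR cutoff: Itgav to 0.61, Itga8 and Itga3 to -0.37 and Lama4 to -0.28. That scaling moved the median log2 fold change of all genes from 0.014 to 0.22 in treated against control cells and from 0.0074 to 0.13 in ECs against control, and the share of higher genes among treated calls past both cutoffs from 39.5% to 47.6%. Leaving out each library in turn gave 8 to 10 higher and 12 to 13 lower chains in treated cells (4 and 5 to 6 past both cutoffs), 20 to 22 and 8 to 10 in ECs against control (16 and 6), and 7 to 8 and 20 to 21 in treated cells against ECs (4 and 17).

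Lamb2 in treated cells against ECs (-0.28) lost its call under 5 alternatives, with adjusted p up to 0.0356, and Itgal in ECs against control lost it without control replicate 1, control replicate 2 or EC replicate 1, with adjusted p up to 0.0217. With the longest transcript as gene length, 39 of 46 shares of chain level moved by more than 1 SD. Chains under about 1 CPM rest on few counts, and changes there are the least precise.

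The replicate numbers were used as a block in a further fit. Same-numbered treated and control libraries correlated in their deviations from group means by 0.00286, 0.123 and 0.0810, and not every library correlated best with its own number, so the numbers are not taken to pair the libraries. With the replicate block, 8 chains were higher and 13 lower in treated cells (4 and 6 past both cutoffs), 22 and 8 in ECs against control (16 and 6), and 8 and 21 in treated cells against ECs (4 and 17).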
